A study of Drosophila melanogaster with 3 samples.

Results

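The proteasome genes of *Drosophila melanogaster* were taken as every protein-coding gene whose symbol starts with Prosalpha, Prosbeta, Rpn or Rpt followed by a number, which gave 48 of 13945 protein-coding genes. Of these, 32 were main subunit genes, with a symbol that ends in its number: 7 core alpha, 7 core beta, 12 Rpn and 6 Rpt genes. The other 16 carried an R or a T after the number and are called paralogs here: 5 of core alpha, 6 of core beta, 2 of Rpn and 3 of Rpt. The rule used gene names only, and no measured value, but it was set with earlier results of these data known.

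Binding of CG12659, which corresponds in flies to INO80C of the chromatin remodeller INO80, was mapped by ChIP-seq with an anti-GFP antibody. The chromatin came from whole embryos of both sexes, collected between 0 and 24 hours of age, of 1 transgenic line that stably carries CG12659 with a GFP at its C terminus. There were 3 biological replicates, numbered 1 to 3 as in the labels, in 1 group. No other genotype, treatment or stage was part of the design, so every comparison lies between genes and not between conditions, and no test over samples was possible. The labels do not name the promoter that drives the transgene, and the antibody field reads CG12659 where the description names GFP. Each value is a mean over all cells of the embryo, in which more bound cells and more binding per cell cannot be told apart. The symbols with T refer to the testis, a tissue not analysed here.

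The proteasome is the protease that degrades proteins marked with ubiquitin. Its barrel-shaped core is built of outer rings of alpha subunits, which gate the entry, and inner rings of beta subunits, of which Prosbeta1, Prosbeta2 and Prosbeta5 carry the proteolytic sites. A regulatory particle caps the barrel. Its Rpt subunits form a ring of ATPases that unfold the substrate, and its Rpn subunits receive the ubiquitin chain, cut it off and hold the particle together. In flies, as in several other animals, some subunits have a duplicated gene, and several of the duplicates with T in their name are known from the male germ line.

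Promoter sequences of 10 members are shown, so that members of high and low signal and paralogs can be read side by side. They are the main genes with the highest and the lowest signal of each class on chromosome arms X, 2L, 3L and 3R. Only main genes with a peak in the reproducible set described below were eligible. The paralogs of the same subunits on those arms are added. Each run covers 180 bases of the Release 6 (dm6) genome from RefSeq, from 150 bases before the start site (TSS) of the canonical Ensembl transcript to 29 after it. It is written 5′ to 3′ along the gene, and the TSS is base 151. Capitals mark matches, on either strand, to 8 short motifs. These are the DNA replication-related element (DRE) TATCGATA, the BEAF-type core CGATA contained in it, the M1BP motif GGTCACACT, the GAF-type GAGAG, the TBP-type TATAAA, the E-box CAGCTG, the antioxidant response core TGACNNNGC and the Pho core GCCAT. The core particle genes come first, with Prosalpha2 and Prosbeta3 as the higher and Prosalpha4 and Prosbeta6 as the lower of their class.
Prosalpha2 (chr3R:12431171-12431350, plus strand): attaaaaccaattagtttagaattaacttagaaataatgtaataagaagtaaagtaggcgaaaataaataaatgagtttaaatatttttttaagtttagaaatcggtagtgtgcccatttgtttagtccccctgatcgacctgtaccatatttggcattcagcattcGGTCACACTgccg
Prosalpha4 (chrX:16276120-16276299, plus strand): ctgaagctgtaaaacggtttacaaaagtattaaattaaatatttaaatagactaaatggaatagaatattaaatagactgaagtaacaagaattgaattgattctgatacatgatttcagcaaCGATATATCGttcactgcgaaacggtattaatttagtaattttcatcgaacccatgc
Prosalpha4T1 (chr3R:20749045-20749224, minus strand): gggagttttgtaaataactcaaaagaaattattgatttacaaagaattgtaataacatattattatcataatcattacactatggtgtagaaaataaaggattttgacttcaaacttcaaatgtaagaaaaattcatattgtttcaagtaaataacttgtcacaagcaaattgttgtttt
Prosbeta3 (chr3R:9006197-9006376, minus strand): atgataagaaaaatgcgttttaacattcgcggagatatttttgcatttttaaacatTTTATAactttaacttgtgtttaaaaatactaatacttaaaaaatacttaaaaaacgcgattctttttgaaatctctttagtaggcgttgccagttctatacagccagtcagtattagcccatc
Prosbeta6 (chr3L:16610389-16610568, minus strand): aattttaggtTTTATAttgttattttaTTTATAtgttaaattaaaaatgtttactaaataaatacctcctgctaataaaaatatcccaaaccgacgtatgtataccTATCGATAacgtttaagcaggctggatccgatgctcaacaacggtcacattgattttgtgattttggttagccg

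The regulatory particle genes follow, with Rpn3 and Rpt5 as the higher and Rpn1 and Rpt6 as the lower of their class.
Rpn3 (chr2L:19051640-19051819, plus strand): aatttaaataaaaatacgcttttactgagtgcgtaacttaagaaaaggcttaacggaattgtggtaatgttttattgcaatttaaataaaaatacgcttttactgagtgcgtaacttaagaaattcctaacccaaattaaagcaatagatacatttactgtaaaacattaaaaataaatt
Rpn1 (chr3L:19914901-19915080, plus strand): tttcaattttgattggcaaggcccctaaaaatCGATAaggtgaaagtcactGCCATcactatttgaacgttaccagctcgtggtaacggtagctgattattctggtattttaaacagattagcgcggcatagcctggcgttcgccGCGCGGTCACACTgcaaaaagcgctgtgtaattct
Rpt5 (chr3R:23752726-23752905, plus strand): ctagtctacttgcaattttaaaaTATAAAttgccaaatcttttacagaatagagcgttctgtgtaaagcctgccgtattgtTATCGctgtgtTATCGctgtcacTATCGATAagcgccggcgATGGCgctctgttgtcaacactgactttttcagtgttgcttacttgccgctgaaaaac
Rpt6 (chrX:21315902-21316081, plus strand): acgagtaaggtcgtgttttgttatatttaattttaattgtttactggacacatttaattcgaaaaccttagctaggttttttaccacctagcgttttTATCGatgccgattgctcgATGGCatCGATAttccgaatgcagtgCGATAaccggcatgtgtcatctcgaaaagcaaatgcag
Rpt6R (chr3R:30583668-30583847, minus strand): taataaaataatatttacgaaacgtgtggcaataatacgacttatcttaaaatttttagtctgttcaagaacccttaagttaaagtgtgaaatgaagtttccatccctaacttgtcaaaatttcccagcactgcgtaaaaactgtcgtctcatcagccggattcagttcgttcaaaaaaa
Among the 8 main genes shown, Prosbeta6 and Rpt5 held the whole DRE, while Prosalpha4, Rpn1 and Rpt6 held the shorter CGATA core without it. Prosalpha2 and Rpn1 held the M1BP motif near the TSS, and in Rpn1 it overlaps a match to the antioxidant response core. The windows of Rpn3, Prosalpha4T1 and Rpt6R held none of the 8 motifs.

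CG12659 sat at nearly all main proteasome promoters and at no paralog promoter by the reproducible peak set. The authors' reproducible set, named for its irreproducible discovery rate (IDR), held 8952 peaks, and a gene was counted when a peak summit lay within 500 bp of any of its TSSs. Such a peak was found at 29 of 32 main genes (90.6%) and at 0 of 16 paralogs, beside 5903 of all 13945 protein-coding genes (42.3%). By class, 6 of 7 core alpha, 5 of 7 core beta, 12 of 12 Rpn and 6 of 6 Rpt main genes had a peak. The main genes without one were Prosalpha1, Prosbeta2 and Prosbeta4. All 29 genes also had a region within 500 bp of a TSS in each of the 3 replicate lists. Of all 5903 genes with a peak, 5877, 5872 and 5817 had one in replicates 1, 2 and 3, so this was usual.

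Each replicate list taken alone showed the same split. Among the 8952 highest-signal regions of replicate 1, a region lay at 29 of 32 main genes and 0 of 16 paralogs, beside 43.1% of all protein-coding genes. In replicate 2 the counts were 27 main genes and 1 paralog, beside 41.2%. In replicate 3 they were 30 main genes and 0 paralogs, beside 40.6%. The share was 89.6% ± 4.77 (SD, n = 3 replicates) for main genes and 2.08% ± 3.61 (SD, n = 3) for paralogs, so the gap between them was larger than the spread between replicates. The paralog counted in replicate 2 was Prosbeta2R2. The 2 peaks that fell outside the highest regions of a replicate were those of Rpn1 and Rpt6, at ranks 9145 and 9989 in replicate 2. The other 27 of 29 (93.1%) were among the highest regions of all 3 replicates, beside 85.3% of all genes with a promoter peak.

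**Figure D1:**
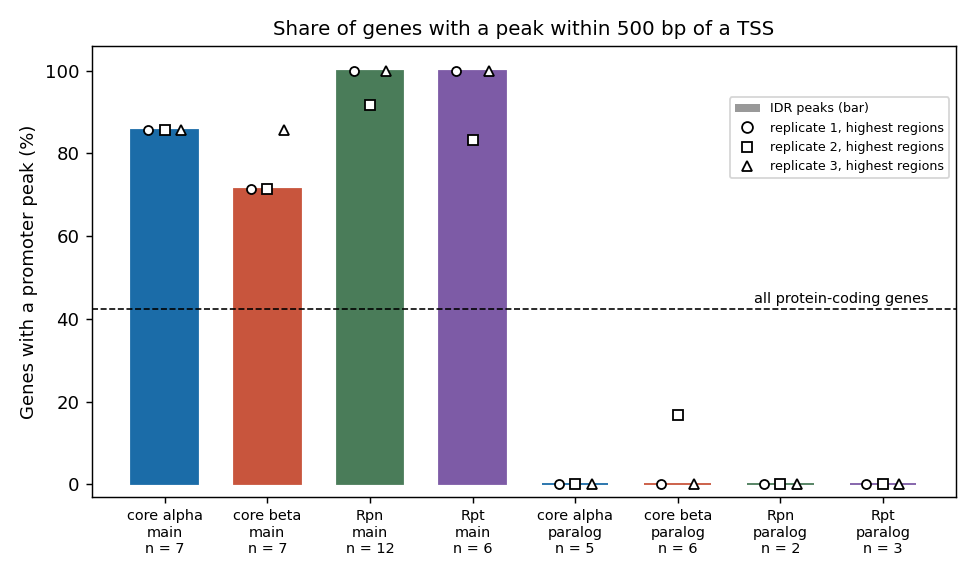
Share of genes (%, vertical axis) with a CG12659 peak within 500 bp of a TSS, for main genes and paralogs of the 4 classes. Bars give IDR peaks, points give the 8952 highest regions of each replicate, and the dashed line is the 42.3% of all protein-coding genes; every main class lies above that line and the 4 paralog bars are at 0.

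Signal is given below as the authors' score per region, which has a scale of its own in each list and is compared only within a list, mainly by rank (1 is the highest). The lists of replicates 1, 2 and 3 held 30000, 30000 and 28466 regions, and the pooled list, made from all 3 before the IDR step, held 30000. The pooled list is labelled as peaks and background together, so a weak region in it does not by itself show binding. Its lowest signal was 48.7, and those of replicates 1, 2 and 3 were 22.9, 19.2 and 17.2. The 8952 IDR peaks were exactly the highest regions of the pooled list, so a rank means the same in both. Region coordinates were identical in replicates 1 and 2 at 617 places, 1 of them at a member, Prosbeta6, and at 0 places in the other pairs. At Prosbeta6 the region was chr3L:16610227-16610696 in replicates 1 and 2, and the shorter chr3L:16610249-16610704 in replicate 3. Regions of replicate 3 at members mostly had that shorter length. The cause of the identical places was not tested. The median rank of the 29 main genes was 2649, beside 3007 for all 5903 genes with a promoter peak. Their median signal was 495, beside 461. In the order of the 5903 genes by signal the main genes had a median percentile of 55.5, close to the middle, and their peaks ran from rank 721 to rank 6503.

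The core alpha subunits form the gate of the barrel, and 6 of their 7 main genes had a peak. Prosalpha5 had a signal of 270, 194 and 166 in replicates 1, 2 and 3, and of 650 in the IDR list (rank 1544). Prosalpha2 had 195, 142 and 122, and 478 in the IDR list (rank 2823), with the peak at chr3R:12430998-12431487. Prosalpha7 had 198, 158 and 75.6, and 453 in the IDR list (rank 3085). These were the highest of the class. At the low end Prosalpha4, whose promoter is shared with the katanin subunit gene kat80, had 104, 81.7 and 67.9, and 258 in the IDR list (rank 6503), the lowest of all members with a peak. Between them lay Prosalpha6, with an IDR signal of 434, and Prosalpha3, with 333. The median IDR rank of the class was 3199, and over the replicate lists the median rank was 3772 ± 502 (SD, n = 3).

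Of the 7 core beta genes, 5 had an IDR peak. Prosbeta1 encodes the caspase-like catalytic subunit. Its signal was 315, 213 and 166 in replicates 1, 2 and 3, and 715 in the IDR list (rank 1277), the highest of the core particle. Prosbeta5 encodes the chymotrypsin-like catalytic subunit, with 316, 154 and 112, and 596 in the IDR list (rank 1870). The third catalytic subunit, the trypsin-like Prosbeta2, had no IDR peak. Of the subunits without a proteolytic site, Prosbeta3 had 241, 188 and 149, and 626 in the IDR list (rank 1673). Prosbeta6 had 150, 92.5 and 67.2, and 304 in the IDR list (rank 5431), the lowest of the 5 with a peak. Prosbeta7 had an IDR signal of 408. Thus 2 of 3 catalytic and 3 of 4 other beta genes had a peak. The median IDR rank was 1870, and 2670 ± 414 (SD, n = 3) over the replicate lists.

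Both beta genes without an IDR peak had a weaker region in the pooled list, which also holds background. At Prosbeta2 the signal was 62.5, 45.5 and 45.4 in replicates 1, 2 and 3, and 152 in the pooled list at rank 10657. These summits, at -279 bp in the pooled list, lay nearer to the TSS of mRpL39, a mitochondrial ribosomal protein gene that points the other way. A weaker pooled region, with a signal of 110 at rank 14140, had its summit at -65 bp. At Prosbeta4 the signal was 68.0 in replicate 1 and 115 in the pooled list at rank 13540, with summits at -425 and -424 bp, nearer to the TSS of Nubp1, an iron-sulfur cluster assembly factor gene. The region of replicate 2 was another, with a signal of 20.7, near the lowest of that list (19.2). Its summit was at 200 bp inside the gene, and no region was listed in replicate 3. In replicate 3 alone, Prosbeta2 was among the highest 8952 regions, at rank 8570.

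The Rpn genes, which encode the non-ATPase subunits of the regulatory particle, all had a peak and held the highest signals. Rpn6, a scaffold of the lid, had a signal of 426, 217 and 262 in replicates 1, 2 and 3, and 922 in the IDR list (rank 721). This summit, at chr2R:14752402, lay downstream of the canonical TSS at chr2R:14752910 and upstream of another TSS of the gene. It was the stronger of 2 IDR regions at Rpn6. Rpn3, also of the lid, had 402, 290 and 193, and 888 in the IDR list (rank 796), with its peak at chr2L:19051702-19051936. Rpn5 had 305, 212 and 238, and 755 in the IDR list (rank 1143). Each of these peaks had a second gene's TSS within 500 bp, and those of Rpn6 and Rpn5 lay nearer to that other TSS. Rpn11, the metalloprotease that cuts off the ubiquitin chain, had 188, 137 and 187, and 505 in the IDR list (rank 2565). Its summit was 243 bp upstream. Rpn1, a large base subunit that docks shuttle proteins, had the lowest signal of the class, with 161, 62.8 and 85.8, and 301 in the IDR list (rank 5521).

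The other 7 Rpn genes lay in between. The ubiquitin receptors Rpn13 and Rpn10 had IDR signals of 732 and 658. The base scaffold Rpn2 had 637. The lid subunits Rpn9, Rpn7, Rpn8 and Rpn12 had 661, 495, 451 and 320. Over the 8 lid genes the median signal was 583 (320 to 922), and over the 4 base genes Rpn1, Rpn2, Rpn10 and Rpn13 it was 647 (301 to 732), so their ranges overlapped. The median IDR rank of the Rpn genes was 1560, and 1760 ± 173 (SD, n = 3) over the replicate lists. That median was ahead of the other 3 classes in every replicate list.

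The Rpt genes encode the ATPase ring, and all 6 had a peak. Rpt5 had a signal of 326, 171 and 141 in replicates 1, 2 and 3, and 641 in the IDR list (rank 1596). Rpt4 had 230, 173 and 94.7, and 509 in the IDR list (rank 2518). Rpt2, the subunit known in yeast for opening the gate of the core, had 284, 130 and 69.1, and 493 in the IDR list (rank 2658). Rpt3 had 154, 92.0 and 77.8, and 324 in the IDR list (rank 5018), with its summit 262 bp upstream and nearer to the TSS of CG11122. Rpt1, with 316, lies wholly within another gene, CG17985. Rpt6 had 191, 57.0 and 78.0, and 303 in the IDR list (rank 5471), the lowest of the ring. The median IDR rank was 3838, and 3952 ± 997 (SD, n = 3) over the replicate lists. Core alpha and Rpt medians differed by less than their spread over replicates.

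The order of the 29 main genes was alike across replicates. Spearman's rho of the signals was 0.833 between replicates 1 and 2, 0.735 between 1 and 3, and 0.763 between 2 and 3 over the 29 genes, a description across genes that are not independent. These genes were taken from the IDR set, which itself rests on agreement between the replicates. No rho over all genes with a promoter peak is given here. Single genes moved all the same. Rpt2 stood at rank 1572 in replicate 1 and 5580 in replicate 3, and Rpn11 at 3449 in replicate 1 and 1178 in replicate 3.

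**Figure D2:**
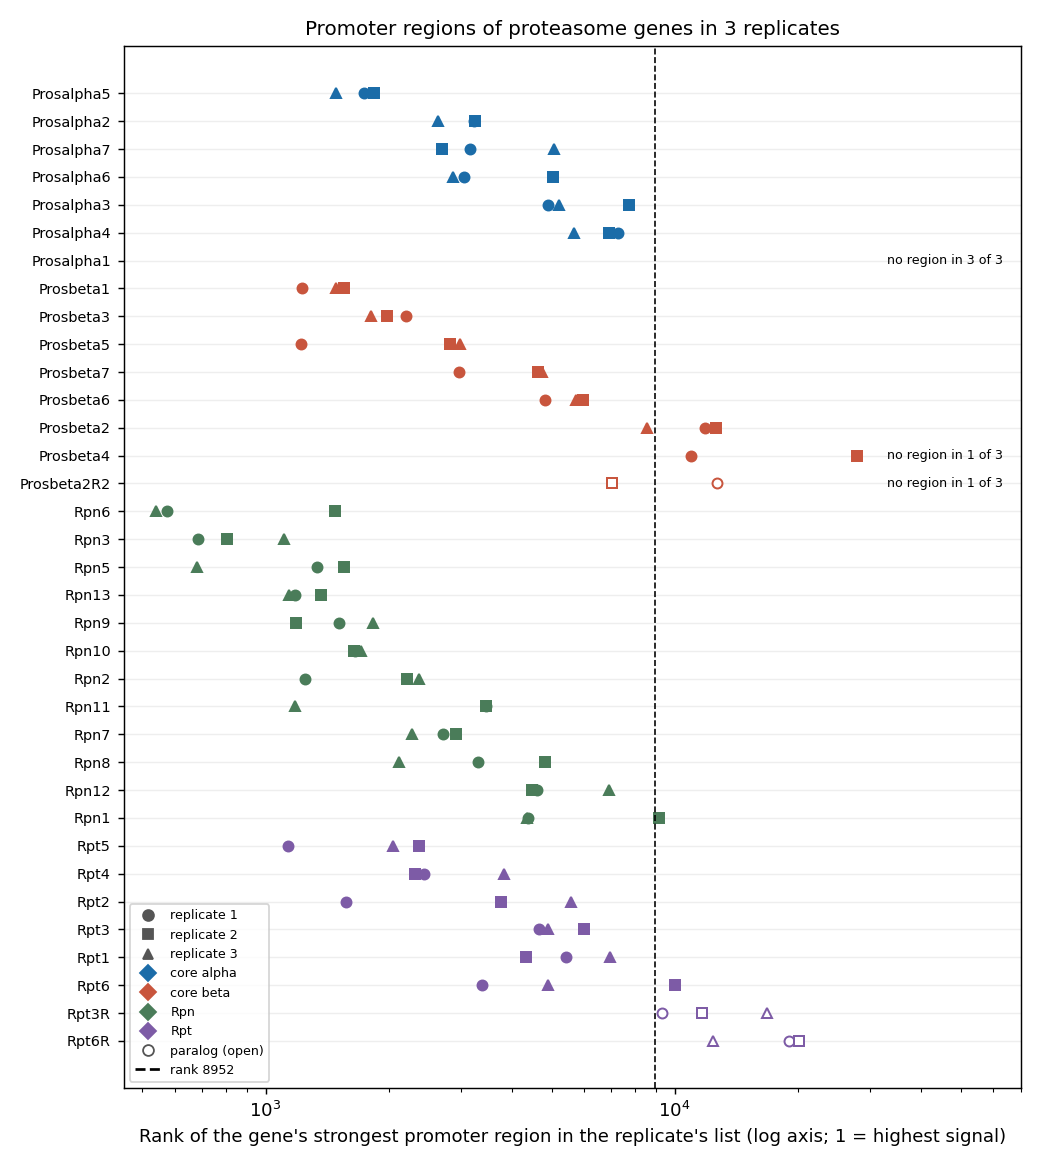
Rank of the strongest region within 500 bp of a TSS (log axis, 1 is the highest signal) in the list of each replicate, for the 31 main genes and 3 paralogs with a region; Prosalpha1, the other main gene, has a row with no point. Colours give the class, symbols the replicate, open symbols paralogs, and the dashed line rank 8952; the Rpn genes reach furthest left, and Prosbeta2, Prosbeta4 and the paralogs lie mostly beyond the line.

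The 16 paralogs had no IDR peak. Of these, 13 had no region at a TSS in any list: Prosalpha1R, Prosalpha3T, Prosalpha4T1, Prosalpha4T2, Prosalpha6T, Prosbeta2R1, Prosbeta4R1, Prosbeta4R2, Prosbeta5R1, Prosbeta5R2, Rpn12R, Rpn13R and Rpt4R. The pooled list had a region at the other 3, and at 31 of 32 main genes, beside 57.9% of all protein-coding genes. Since that list also holds background, a weak region in it alone does not show binding. Rpt3R, whose parent encodes an ATPase subunit, had a signal of 81.0, 49 and 25.2 in replicates 1, 2 and 3, and 154 in the pooled list (rank 10538). Prosbeta2R2 had 57.8 and 80.8 in replicates 1 and 2, no region in replicate 3, and 154 in the pooled list (rank 10570). Rpt6R had 37.6, 28.8 and 32.1, and 93.2 in the pooled list (rank 16398). The pooled summit at Rpt6R, 89 bp upstream, and its summits in the 3 replicates were nearest to the paralog itself. At Prosbeta2R2 the pooled summit and those of both replicates lay nearer to the TSS of a neighbour, CG1116. At Rpt3R the pooled and replicate 2 summits lay nearer to the TSS of Alg12, and those of replicates 1 and 3, at -111 and -125 bp, nearer to that of Rpt3R. By its strongest promoter region in the pooled list, no member had a rank between 6503 (Prosalpha4) and 10538 (Rpt3R). Weaker second regions did lie in that gap, such as those at Prosalpha6 (rank 6693) and Rpn8 (rank 7293).

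Within 500 bp the distance to the nearest IDR summit restates the peak count, and beyond it the main genes and paralogs overlapped. From a TSS of a main gene it was 69 bp in the median, beside 1793 bp for all protein-coding genes, and the 3 main genes without a peak lay at 3347 bp (Prosalpha1), 4155 bp (Prosbeta4) and 11874 bp (Prosbeta2). From a TSS of a paralog it was 13252 bp in the median. The nearest were Prosbeta2R2 at 2107 bp and Rpt3R at 3092 bp, and the other 14 ranged from 6440 bp at Prosalpha1R to 67889 bp at Prosbeta4R2. In the pooled list, the median distance was 61.5 bp for main genes and 6176 bp for paralogs, beside 242 bp for all protein-coding genes.

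**Figure D3:**
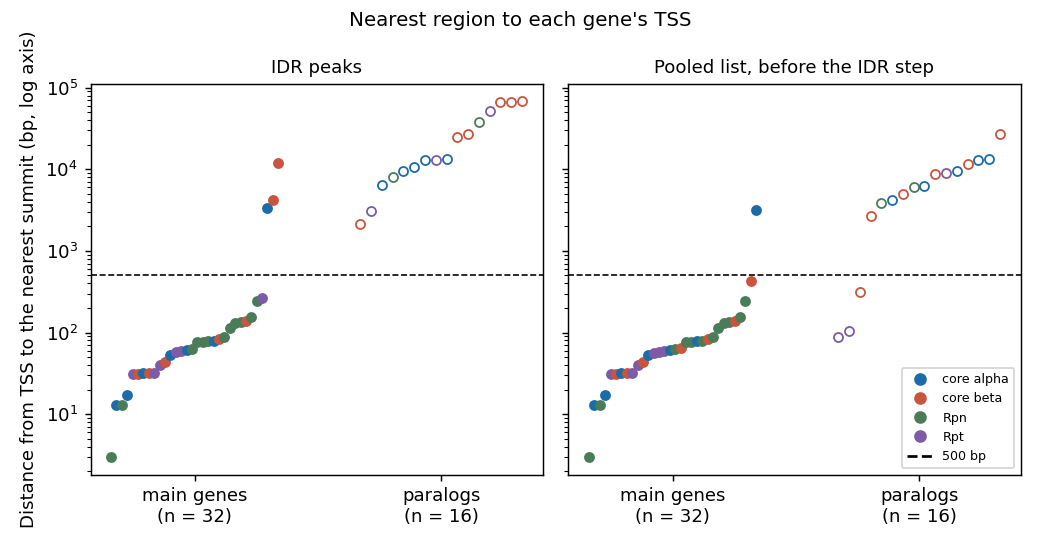
Distance (bp, log axis) from each gene's TSS to the nearest summit, for 32 main genes (filled) and 16 paralogs (open), in the IDR peaks (left panel) and in the pooled list (right panel). The dashed line is 500 bp; 29 main genes and 0 paralogs lie below it on the left, and 31 and 3 on the right.

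The paralogs differed from their parents in sequence, with 1 exception. Prosalpha1R is part of a tandem duplication that holds Prosalpha1 as well. The copies, at chr2R:7826739-7829545 and chr2R:7829849-7832655, are 2807 bp long and identical in the Release 6 genome, with 0 mismatches and 0 gaps. No summit of any list fell in either copy, and the nearest pooled summit was 3148 bp from the TSS of Prosalpha1 and 6241 bp from that of Prosalpha1R. The file notes list a signal track of unique reads, and how reads that fit both copies entered the peak calls is not stated. Whether that bears on the empty copies was not tested. The other 15 paralogs shared 61.9% to 78.2% of aligned coding bases with their parent (median 69.4%), with no identical stretch longer than 26 bp. Their promoters shared 46.5% to 68.3% of aligned bases (median 64.4%), with no identical stretch over 12 bp. Values for unrelated promoters are not given here, so these shares do not show conservation by themselves.

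In gene structure, the coding sequence lay in 1 exon in 6 of 16 paralogs and in 4 of 32 main genes, beside 20.9% of all protein-coding genes. The 3 paralogs Prosalpha4T1, Rpn12R and Rpn13R lay wholly within another protein-coding gene, as did the main gene Rpt1, beside 13.4% of all. Host genes were CG42322 for Prosalpha4T1, Sytbeta for Rpn12R, and both CG15465 and rg for Rpn13R. Rpt1 had a peak within its host CG17985, and the 3 nested paralogs had none.

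Many main proteasome promoters faced another gene. A neighbouring protein-coding TSS on the other strand, pointing away within 1000 bp, was present for 22 of 32 main genes and 4 of 16 paralogs, beside 5052 of 13945 protein-coding genes (36.2%). Among main genes with such a divergent neighbour, 19 of 22 had an IDR peak, beside 71.5% of all divergent genes. Among main genes without one, 10 of 10 had a peak, beside 25.8% of all other genes. Among paralogs it was 0 of 4 with a divergent neighbour and 0 of 12 without. The 3 main genes without a peak all had a divergent neighbour: CG18853 for Prosalpha1, mRpL39 for Prosbeta2 and Nubp1 for Prosbeta4. Since CG12659 peaks are more frequent at divergent promoters in these data, the counts are set within each kind, and the main genes lay above and the paralogs below the background in both.

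For 18 of 29 main genes, the summit lay within 500 bp of another gene's TSS as well (62.1%, beside 58.3% of all genes with a promoter peak). In 20 of 29 the proteasome gene's own TSS was the nearest, a count with no share over all genes beside it here. The partner was nearest for the other 9: Rrp42 (an exosome subunit) at Prosbeta1, Iru at Prosbeta3, Npc1a (sterol transport) at Prosalpha6, Hat1 (a histone acetyltransferase) at Rpn5, ave at Rpn6, Slik (a kinase) at Rpn8, CG11122 at Rpt3, mldr at Rpt4 and RanBP3 at Rpt5. Partners with the farther TSS included kat80 at Prosalpha4, CG1671 at Prosalpha7, dgo at Prosbeta5, l(2)37Bb at Rpn3, CtsL1 (a lysosomal cathepsin) at Rpn13, Slbp (the histone mRNA stem-loop binding protein) at Rpn2, AP-2mu at Rpn7 and CG13599 at Rpt2. A peak at such a promoter cannot be given to 1 of the 2 genes by position alone. The peaks of Prosalpha2, Prosalpha3, Prosalpha5, Prosbeta6, Prosbeta7, Rpn1, Rpn10, Rpn11, Rpn12, Rpt1 and Rpt6 had no partner.

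Summits mostly lay just upstream of the nearest annotated start site of the gene. Over the 29 main genes the median position from the nearest TSS of the gene was -77 bp (negative is upstream), with quartiles at -135 and -32 bp and a range from -276 bp at Rpn5 to 58 bp at Rpt1. For all genes with a promoter peak the median was -88 bp. The summit was upstream in 25 of 29 (86.2%, beside 81.2% of all) and within 200 bp in 24 of 29 (82.8%, beside 4429 of 5903 for all). Rpn6, Rpn9 and Prosbeta7 count as upstream by another annotated TSS. Their summits lay inside the gene, downstream of the canonical TSS. The Rpn summits lay farther out, with a median of -133 bp, than those of core alpha (-57 bp), core beta (-44 bp) and Rpt (-36 bp). Rpn6 at -131 bp and Rpn9 at -135 bp, near the middle of the Rpn genes, were measured from a TSS other than the canonical one. Over the 3 replicate lists the Rpn median was -128 ± 26.4 bp (SD, n = 3), and those of core alpha and core beta were -58.8 ± 6.51 and -49.3 ± 9.24 bp. Rpt gave -13.0 ± 20.9 bp. With the summit nearest to a TSS in place of the strongest, the IDR medians were -77.5 bp for Rpn, -42.5 bp for core alpha, -44 bp for core beta and -36 bp for Rpt. The Rpn median of the strongest summits was the farthest upstream in every replicate, in a class where the partner gene was nearest to the summit at Rpn5, Rpn6 and Rpn8.

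Replicate summits lay within 50 bp of each other at most, but not all, of the 29 main genes. Between replicates 1 and 2 the median gap was 26 bp, and 17 of 29 summits lay within 50 bp of each other. Between replicates 1 and 3 these values were 31 bp and 18, and between 2 and 3 they were 24 bp and 20. The same values over all genes with a promoter peak are not given here. The widest gap was 323 bp, at Prosalpha6 between replicates 2 and 3, where 2 IDR peaks lie on the shared promoter. At Prosalpha4 the strongest region of replicate 1 was 313 bp upstream and those of replicates 2 and 3 were 52 and 67 bp upstream.

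**Figure D4:**
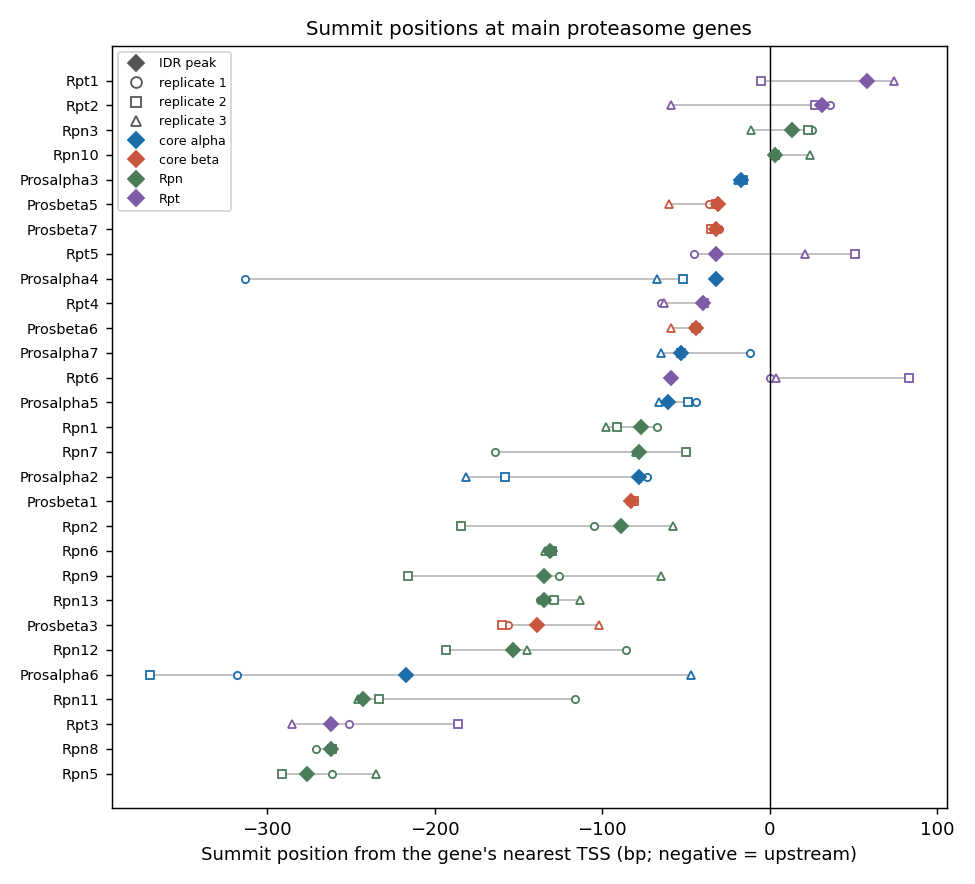
Summit position (bp from the gene's nearest TSS, negative upstream) at the 29 main genes with an IDR peak, ordered by position. Diamonds are IDR peaks, open symbols the strongest region of each replicate and grey lines join them; 25 of 29 diamonds lie left of 0 and the lowest rows hold Rpn5, Rpn8, Rpt3 and Rpn11.

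A limit of 200 bp kept the peaks of 27 main genes, beside 34.5% of all protein-coding genes, and dropped those of Rpn11 and Rpt3. A limit of 1000 bp kept 29 main genes and 0 paralogs, beside 45.6%.

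The sequences at the summits held the short CGATA core often. Within 50 bp of the summit, CGATA was found at 14 of 29 main genes (48.3%), beside 27.6% of the 5716 IDR peaks at protein-coding promoters. Within 100 bp it was found at 25 of 29 (86.2%), beside 43.7%. The 4 without it were Prosalpha2, Prosbeta3, Rpn11 and Rpt4. The full DRE, which contains CGATA, lay within 50 bp at Prosalpha5, Prosbeta1, Prosbeta6 and Rpt5, 4 of 29 beside 5.39%, and within 100 bp at 10 of 29 beside 10.1%. TATAAA was within 50 bp at 7 of 29 beside 17.7%, and GCCAT at 6 of 29 beside 15.7%. The M1BP motif, the GAF-type motif, the E-box and the antioxidant response core each gave 0 of 29 within 50 bp, beside 3.83%, 9.53%, 6.44% and 3.22%, and 3, 3, 2 and 4 of 29 within 100 bp, beside 7.26%, 18.7%, 12.8% and 6.09%.

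The promoter windows, placed on the TSS and not on a peak, allow main genes and paralogs to be compared. CGATA was present in 22 of 32 main windows and 7 of 16 paralog windows, beside 37.1% of 13944 windows of all protein-coding genes. The DRE was present in 8 main windows and in 1 paralog window, that of Rpt3R, beside 7.66%. GGTCACACT was present in 4 main windows (Prosalpha2, Rpn1, Rpn7 and Rpn8) and 0 paralog windows, beside 4.80%. GAGAG was present in 1 main window (Rpn13) and 2 paralog windows (Prosbeta2R1 and Rpt4R), beside 21.2%. The remaining motifs were near their background, with TATAAA in 9 main and 4 paralog windows beside 30.6% and GCCAT in 8 and 4 beside 27.9%, except that CAGCTG was found in none of the 48 windows, beside 12.9%. TGACNNNGC was found in 1 of each (Rpn1 and Prosbeta4R2), beside 5.87%. Prosalpha1 and Prosalpha1R have the same window and both hold CGATA.

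**Figure D5:**
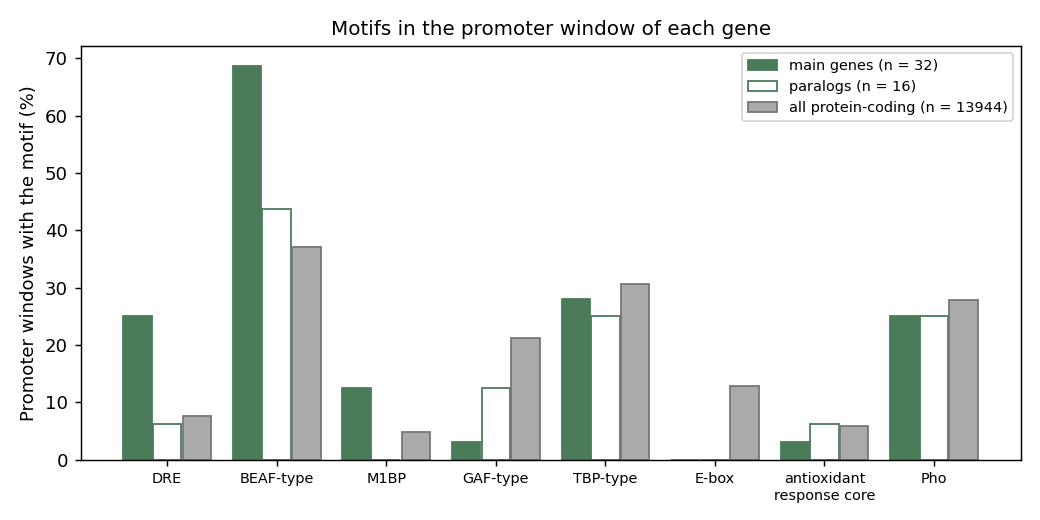
Share of promoter windows (%, vertical axis) that hold each motif on either strand, for 32 main genes (filled), 16 paralogs (open) and 13944 protein-coding genes (grey). The CGATA core (BEAF-type) is in 68.8% of main, 43.8% of paralog and 37.1% of all windows, and the E-box in 0 of the proteasome windows.

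Of 26 listed genes of ubiquitin-dependent turnover found in the annotation, 23 had an IDR peak (88.5%), beside 42.3% of all protein-coding genes. The list was drawn up with earlier results of these data known. Among the highest regions of replicates 1, 2 and 3 the counts were 23, 24 and 24, beside 43.1%, 41.2% and 40.6%. All 5 genes of ubiquitin supply had a peak. RpS27A, which encodes ubiquitin fused to a ribosomal protein, had 411, 262 and 180 in replicates 1, 2 and 3 and an IDR signal of 858, and the polyubiquitin genes Ubi-p5E and Ubi-p63E had IDR signals of 403 and 320. All 6 genes of shuttles and the segregase had one, from 212 at Npl4 to 599 at Ubqn, with 589 at TER94, the ATPase that extracts ubiquitinated proteins. Among accessory and assembly genes it was 4 of 6. The deubiquitinase gene Uch-L5 had an IDR signal of 883 and the maturation factor gene Pomp 734.

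The 3 turnover genes without an IDR peak had regions in replicate lists. REG, the gene of an alternative cap of the core, had a signal of 39.2 in replicate 1 and 22.8 in replicate 3, with none in replicate 2. The lowest signals in the lists of replicates 1 and 3 were 22.9 and 17.2. Sem1, a small lid subunit gene that the name rule does not take in, had 85.4, 32.9 and 56.8, and was among the highest 8952 regions in replicates 1 and 3. In the COP9 signalosome, a complex built like the proteasome lid, 6 of 7 genes had a peak and CSN4 did not, with 47.1, 67.7 and 45.0 and a place among the highest regions in replicates 2 and 3. The genes of the transcription factor cnc, known as a regulator of proteasome genes under stress, and of its partner maf-S both had a peak, with IDR signals of 542 and 435.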

How the data were processed

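Chromatin of 3 biological replicates in 1 group was profiled, per the labels, and how the replicates were separated is not described further. The authors deposited lists of regions in narrowPeak form. Per the file notes, regions were called per replicate and on all 3 together with 1 control alignment (not analysed here), and IDR then gave the reproducible set. Steps not given in the sources used here include the aligner, the caller and the IDR threshold. Each deposited signal is a score set by the authors' caller and was compared within a list alone. The −log10 q-value that the authors deposited was not used to rank, since 8550 of 8952 IDR peaks share its maximum of 4.23. The lists hold no counts, so depth per sample is unknown, no interval was given and small differences cannot be judged for counting error.

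The dm6 lists were joined to the Ensembl 115 annotation (BDGP 6.54) and the Release 6 genome; dm3 lists were not used. A gene took its highest-signal summit within 500 bp of any TSS. Values are counts, medians and SDs over replicates, with no p-value, since 1 group allows no test over samples. Coordinates are 1-based. Paralogs were aligned to their parent over coding sequence and over 250 bp before to 50 bp after the TSS with Biopython 1.88. A promoter window lay on the genome for 13944 of 13945 genes. The summit assignment was tested on simulated summits.

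Members, lists, motifs and display rules were chosen with earlier results of these data known. All members are named; 1 partner gene is not reported here. Replicate values are given for the 3 highest and the lowest main gene with an IDR peak in each class. They are also given for main genes without an IDR peak and paralogs with a region. Members whose nearest IDR summit lies 200 to 1000 bp from a TSS have them too. Ufd1-like and CSN2 matched no annotated symbol. Other settings were TSS distance, canonical or nearest TSS, the stronger peaks, the pooled list, wider motif windows and each replicate left out. Tables were handled with pandas 2.3.3 and numpy 2.4.6, correlations computed with scipy 1.17.1 and plots drawn with matplotlib 3.10.9, under Python 3.11.15.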

Additional observations from a re-analysis of the deposited data

How the results depend on the processing

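Counts of main genes with a peak ranged from 21 with the upper 50% of the IDR peaks by signal to 31 with the pooled list, while the share of all protein-coding genes moved from 28.8% to 57.9%. Paralogs stayed at 0 in all settings tried except the pooled list, which gave 3 (Prosbeta2R2, Rpt3R and Rpt6R). Where a summit counted only for its nearest protein-coding TSS, 22 main genes were left beside 33.6% of all genes, with core beta at 3 of 7 and Rpt at 3 of 6; here a gene loses each peak that lies nearer to another TSS. With that upper 50%, Rpt was also 3 of 6. With replicates left out in turn, main genes numbered 27 to 29, Rpn 11 to 12 and Rpt 5 to 6 (Rpn1 and Rpt6 were lost without replicate 1 and without replicate 3), while core alpha stayed at 6, core beta at 5 and paralogs at 0; the IDR step was not repeated, the sets held 7509 to 7771 regions, and the share of all genes was 37.2% to 39.0%. The median rank of 2649 became 2921 in the list of replicate 2. The median position of -77 bp became -59 bp with the nearest summit and -59 bp with the canonical TSS only. In wider motif windows counts rose by construction. Leaving out Prosalpha1 and Prosalpha1R, chosen after seeing the data, gave 29 of 31 main genes and 0 of 15 paralogs. No paired analysis was possible because there is 1 group. The pooled list also holds background, so a weak region in it may not mark binding. Region lists without counts limit what a missing region shows: it lies under the list's lowest signal, not at 0. For the identical copies of Prosalpha1 and Prosalpha1R this may not hold, since how reads that fit both were treated is not stated.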
